A study of Mus musculus with 8 samples.

Results

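Ly6d, Slc24a3, Rin1, Col20a1, Fchsd1, Cd276 and Cib3 were 7 of the 16133 genes measured, low but detected in the liver of WT mice and raised 33.1-fold to 205-fold in the liver of METTL14Alb mice. They were selected on that very difference, as the largest rises among well-counted genes, so the change between genotypes is a description of how they were chosen and carries no test here. The KO group was METTL14Alb mice, called LKO in the series' text, and the WT group was METTL14f/f mice, which carry the floxed allele. All mice of both genotypes had received an intraperitoneal injection of tunicamycin (2 mg/kg) 24 hours before, and untreated liver was not analysed here. Polyadenylated liver RNA was sequenced before (input) and after (IP) precipitation with an m6A antibody, with 2 libraries each for KO input, WT input, KO IP and WT IP. The sources used here do not give strain, age, the driver of the deletion or whether any mouse gave more than 1 library, so any p-value measures only the spread between these libraries, which may be technical.

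METTL14 forms with METTL3 the methyltransferase that places N6-methyladenosine (m6A) on mRNA, a mark that readers use to direct splicing, translation and decay. Tunicamycin stops proteins from receiving N-linked sugars, which stresses the endoplasmic reticulum. The 7 genes belong to different protein families, and none is best known from liver. Ly6d encodes a small glycolipid-anchored surface protein of the LY6 family (ThB), used as a marker of B-cell progenitors, thymocytes and stratified epithelium. Cd276 encodes B7-H3, a B7 family immune checkpoint protein that is low in most healthy tissues and common on tumour cells. Slc24a3 encodes NCKX3, a potassium-dependent sodium calcium exchanger of brain and smooth muscle. Rin1 encodes a RAS effector that activates RAB5 and ABL kinases and is best known from forebrain neurons. Fchsd1 encodes an F-BAR and SH3 domain protein, a relative of Nervous wreck in the fly, that acts on membranes and actin. Col20a1 encodes a collagen of the FACIT group, whose members sit on the surface of collagen fibrils, and was described in chick embryos. Cib3 encodes a small EF-hand calcium-binding protein that works with the TMC mechanotransduction channels of hair cells.

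The authors' deposited table compared the input libraries without saying which genotype is the numerator, and its log2 changes were read here as KO over WT. This reading rests on the peak lists. In the authors' deposited table, genes of mean 100 or more with a log2 value above 2 numbered 347, and peaks were found solely in KO for 156 of them and solely in WT for 0. Genes of such means with a value below -2 in the authors' deposited table numbered 403, with peaks solely in KO for 30 and solely in WT for 46. The libraries are lettered (KO A and B, WT A and B) because their replicate numbers cannot be told from the table, and their estimated totals were 12158024 to 12833456 reads in KO and 13490733 to 16830670 reads in WT. Mettl14 itself had 64.6 and 62.0 normalized counts in the KO libraries, against 79.8 and 99.7 in the WT libraries. The change of Mettl14 in the authors' deposited table was -0.50 ± 0.41 on the log2 scale (SE, n = 2 libraries per genotype, adjusted p = 0.342 from DESeq2). The mRNA of the targeted gene was therefore not shown to be lower, and with libraries scaled to equal totals in limma its change was 0.32. Which exons were deleted, and how many of these reads lie outside them, is not stated in the sources used here.

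Of the 2 surface proteins, Ly6d (gene 17068, chr15:74762056-74763567, mm10) had 4006 and 3170 normalized counts in the KO libraries, against 16.2 and 18.9 in the WT libraries. Behind these stood 5027 and 3731 reads in KO and 15 and 14 reads in WT. Both KO libraries lay far above both WT libraries, the lower KO library 168-fold above the higher WT library. The authors' deposited table gave Ly6d a log2 change of 7.69 ± 0.34 (SE), from which genotype means of 3588 in KO and 17.4 in WT were derived. Cd276 (gene 102657, chr9:58524300-58555033) had 730 and 580 normalized counts in the KO libraries, against 10.8 and 25.6 in the WT libraries. Its WT libraries were the least alike of any member, 2.37-fold apart on 10 and 19 reads, yet the lower KO library was still 22.7-fold above the higher WT library. For Cd276 the authors' deposited table gave 5.22 ± 0.38 (SE), and the derived means were 656 in KO and 17.6 in WT.

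The exchanger and the other calcium protein were also raised. Slc24a3 (gene 94249, chr2:145167775-145642166) had 873 and 564 normalized counts in the KO libraries, against 5.39 and 4.04 in the WT libraries. The WT values rest on 5 and 3 reads, the fewest of the 7 genes, so its ratio is the least precise. Over both libraries per genotype Slc24a3 was 151-fold higher in KO, with an exact Poisson 95% interval on the 8 WT reads of 76.7-fold to 350-fold, which covers counting error only. The log2 change of Slc24a3 in the authors' deposited table was 7.23 ± 0.58 (SE), with derived means of 719 in KO and 4.78 in WT. Cib3 (gene 234421, chr8:72204335-72213086) had 748 and 1360 normalized counts in the KO libraries, against 25.9 and 37.7 in the WT libraries. The KO libraries of Cib3 were 1.82-fold apart, the widest gap among the 7 genes, and did not overlap those of WT. Its log2 change in the authors' deposited table was 5.07 ± 0.35 (SE), with derived means of 1054 in KO and 31.5 in WT.

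Among the proteins that act inside the cell, Rin1 (gene 225870, chr19:5049999-5057071) had 812 and 945 normalized counts in the KO libraries, against 10.8 and 16.2 in the WT libraries. The KO libraries of Rin1 were the closest of the set, 1.16-fold apart. The authors' deposited table gave Rin1 a log2 change of 6.05 ± 0.39 (SE), with derived means of 879 in KO and 13.2 in WT. Fchsd1 (gene 319262, chr18:37957431-37969814) had 683 and 548 normalized counts in the KO libraries, against 12.9 and 13.5 in the WT libraries. Its WT libraries were nearly level, 1.04-fold apart on 12 and 10 reads. For Fchsd1 the authors' deposited table gave 5.55 ± 0.40 (SE), with derived means of 616 in KO and 13.2 in WT. The matrix gene Col20a1 (gene 73368, chr2:180983323-181017545) had 1073 and 1577 normalized counts in the KO libraries, against 30.2 and 20.2 in the WT libraries. Its KO and WT libraries did not overlap, and its WT reads, 28 and 15, were among the more numerous of the set. In the authors' deposited table Col20a1 changed by 5.70 ± 0.33 on the log2 scale (SE), with derived means of 1325 in KO and 25.5 in WT.

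**Figure D1:**
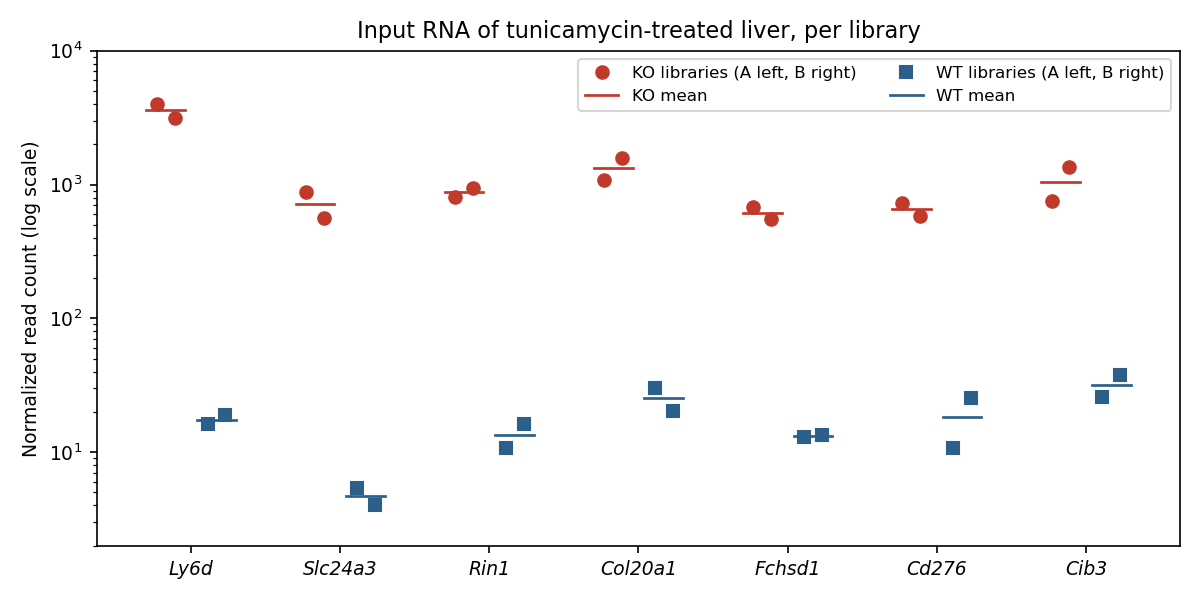
Normalized read counts of the 7 genes in each input library (log axis), KO libraries as circles and WT libraries as squares, with a line at each group's mean (n = 2 libraries each). Every KO library sits at or above 548 and every WT library at or below 37.7, and the 2 libraries of a genotype lie close together by comparison.

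Both KO libraries exceeded both WT libraries for 7 of 7 genes, as they did for 5453 of 12980 tested genes with recovered counts, or 42%. All 7 genes are among the 2904 of 14257 tested genes that the authors' deposited table called higher in KO (20.4%, adjusted p under 0.05 from DESeq2), and since the genes were picked from that contrast nothing is read from either count. Within KO the 7 genes did not move as a block between libraries. Ly6d, Slc24a3, Fchsd1 and Cd276 were higher in KO A, while Rin1, Col20a1 and Cib3 were higher in KO B. The fold between KO libraries ran from 1.16 (Rin1) to 1.82 (Cib3), against a median of 1.09 and a 90th percentile of 1.25 over the 2008 genes in the same range of KO means. All but Rin1 and Fchsd1 lay beyond that percentile, Slc24a3 at 1.55-fold and Col20a1 at 1.47-fold. Within WT the fold between libraries was 1.04 to 2.37, against a median of 1.60 and a 90th percentile of 3.75 over 2308 genes of like WT mean.

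The name near-silent describes WT liver only loosely. The 7 genes had 3 to 28 reads in each WT library, and none was at 0 in any. Of 14856 genes with recovered counts, 5298 had a WT mean at or below that of Cib3, the highest of the set at 31.8 normalized counts. Of these 5298 genes 9 reached a KO mean at least as high as that of Fchsd1, the lowest of the set at 616. They were the 7 genes, Gm13889 (a predicted gene) and Itga6 (an integrin that binds laminin).

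The choice of 7 genes depended on a limit of read count and on the size of change. Above the median mean of tested genes, 211 normalized counts, 8 genes changed by at least as much as Cib3 in the authors' deposited table. These were the 7 genes and Abcc4, an exporter of bile acids and nucleotides, with 1841 and 1564 normalized counts in the KO libraries, against 45.3 and 41.7 in the WT libraries. Its log2 change in the authors' deposited table, 5.29, lies between those of Fchsd1 and Cd276. Just outside, the authors' deposited table gave 5.003 for Ddr1 (a collagen receptor kinase), 4.83 for Prss8 (a membrane serine protease), 4.82 for Gm13889, 4.59 for Itga6 and 4.53 for Sh3pxd2b (a scaffold of invasive cell protrusions). Below the median mean a further 170 genes changed by at least as much as Cib3 in the authors' deposited table. The closest to the limit was Dhrs9, a retinol and steroid dehydrogenase, at a mean of 209.7 and a log2 change of 9.44 in the authors' deposited table. Dhrs9 had 388 and 450 normalized counts in the KO libraries, against 0 and 1.35 in the WT libraries.

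**Figure D2:**
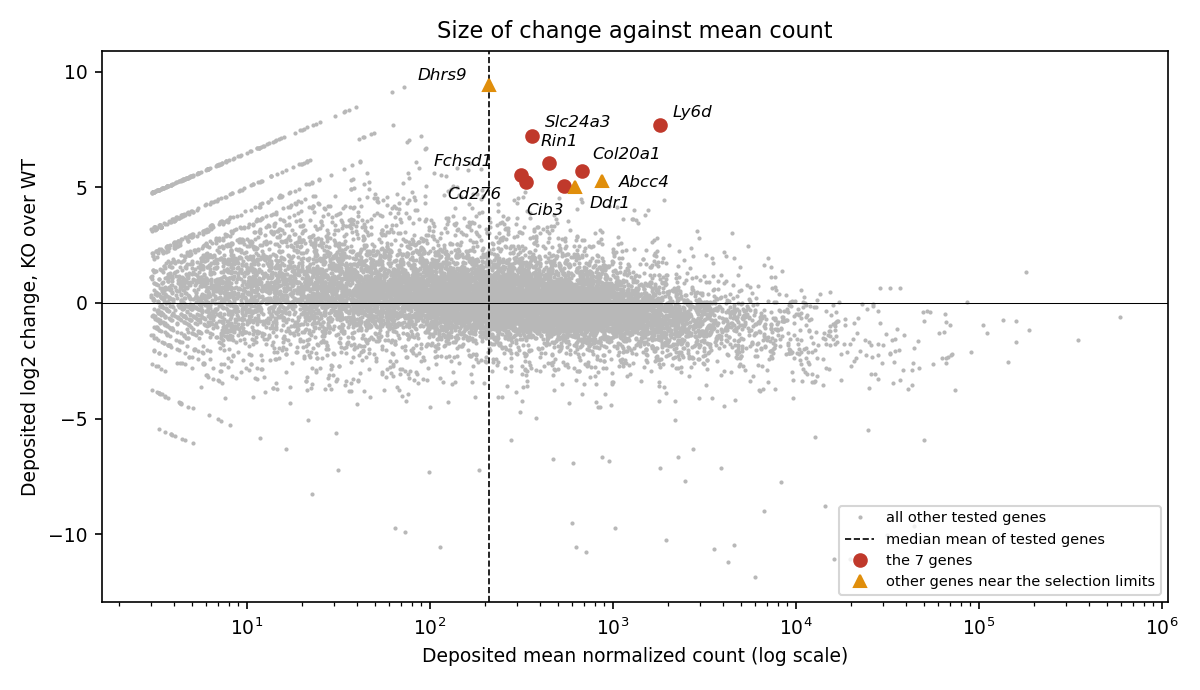
Log2 change, KO over WT, against mean normalized count (log axis) for all tested genes of the authors' deposited table, with the 7 genes as circles, 3 genes near the limits of selection as triangles and the median mean as a dashed line. The 7 genes lie right of the line at log2 changes of 5.07 to 7.69, with Abcc4 among them, Ddr1 just below and Dhrs9 just left of the line.

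Sequence before the annotated start was at hand for 5 of the 7 genes, from RefSeq (build GRCm38.p6), and for Ly6d and Fchsd1 no window was used here. The 250 bases before the start of Slc24a3 (chr2:145167525-145167774, plus strand) and of Cd276 (chr9:58555034-58555283, minus strand) lie outside the annotated genes. They are shown for that reason and because both windows are rich in G and C, so their G and C content describes the choice. Capitals mark matches to the GC box (GGGCGG, on either strand, as CCGCCC on the other) and the CCAAT box (CCAAT, or ATTGG on the other strand).
Slc24a3: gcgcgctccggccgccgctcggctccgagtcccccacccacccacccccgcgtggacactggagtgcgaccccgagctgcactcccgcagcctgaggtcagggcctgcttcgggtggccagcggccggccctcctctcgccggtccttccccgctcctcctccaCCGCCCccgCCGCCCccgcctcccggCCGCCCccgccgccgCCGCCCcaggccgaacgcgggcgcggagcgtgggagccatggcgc
Cd276: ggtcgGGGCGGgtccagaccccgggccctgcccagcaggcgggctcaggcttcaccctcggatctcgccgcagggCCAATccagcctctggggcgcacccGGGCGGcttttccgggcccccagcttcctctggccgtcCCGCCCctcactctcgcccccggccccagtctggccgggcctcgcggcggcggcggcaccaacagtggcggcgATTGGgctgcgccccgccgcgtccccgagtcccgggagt
The Slc24a3 window was 80.8% G and C and the Cd276 window 77.6%, against a median of 52.4% over all 32851 windows of the table. The Slc24a3 window held 4 GC boxes, within 86 bases of the start, and the Cd276 window held 3 GC boxes and 2 CCAAT boxes. Over all windows 32.7% held a GC box and 33.8% a CCAAT box. A second annotated start of Slc24a3, inside the gene, had 2 adjoining CCAAT boxes and no GC box, and its window was 63.6% G and C. The windows of Rin1, Cib3 and Col20a1 were 58.0%, 55.2% and 49.2% G and C.

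The windows of Rin1, Col20a1 and Cib3, and that of the later Slc24a3 start, lie before starts inside the annotated span of the gene, so they are not the sequence upstream of the whole gene. The Rin1 window held a TEAD site (GGAATG) and an NRF2 antioxidant element (TGACNNNGC), which 12.6% and 10.2% of all windows held. The Col20a1 window held a TEAD site, and the Cib3 window held none of the 9 motifs searched. No member's window held a TATA box (TATAAA, in 12.4% of all windows), an AP-1 site (TGANTCA, in 6.75%) or an E-box (CACGTG, in 6.02%). Nor did any hold the 2 elements of the unfolded protein response that were searched, the composite site of ATF4 and C/EBP (TGATGCAA, in 0.791%) and the element of XBP1 and ATF6 (TGACGTG, in 1.65%). No motif was common to all 5 genes. Both strands were searched throughout, and a match describes letters in a window, not a bound site.

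m6A peaks were listed per genotype, 12290 peaks in 5861 genes for KO and 5586 peaks in 2988 genes for WT, with 1 list per genotype and hence no replicate check. Ly6d had 1 peak, in the KO list (chr15:74762761-74763518, mm10, minus strand). It comprised 2 blocks of 90 and 10 bases separated by 659 bases, and ran from 49 to 806 bases after the gene's start in a gene of 1512 bases. The authors' enrichment of IP over input for this peak was 58.0, above 92.6% of the peaks in the KO list, whose median was 13.1, and its p-value was listed as 0. Ly6d had no peak in the WT list. Slc24a3, Rin1, Col20a1, Fchsd1, Cd276 and Cib3 had 0 peaks in the KO list and 0 in the WT list, whether matched by name or by overlap with the gene's span.

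While 6 of the 7 genes had no KO peak, most genes with as many reads had one. Within the range of derived KO means of the 7 genes, 86.6% of 2895 genes had a peak in the KO list and 53.9% a peak in the WT list, against 14.3% and 0% of the 7 genes. Over the narrower range of the 6 genes without a peak, 616 to 1325, the shares were 83.6% in the KO list and 46.7% in the WT list of 1944 genes. The share was lower among genes with large rises. Of the 20 genes in the wider range with a log2 change of at least 4 in the authors' deposited table, 8 (40%) had a KO peak, and 7 of the 13 that are not among the 7 genes. Of 111 genes with a log2 change between 2 and 4, 83.8% had a KO peak. No statistical test was made of these shares, because 6 genes of a chosen set are no sample of others, and transcript length was not used.

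Other genes among those 20 had peaks in KO. Ddr1 had 2 KO peaks with a top enrichment of 35.8, Col3a1 (a fibrillar collagen of fibroblasts) had 2 with a top of 14.3, and Tnfrsf12a (the receptor of TWEAK) had 2 with a top of 17.4. Gm13889 had 1 at 3.02. In contrast, Abcc4, Anxa2 (a calcium-dependent membrane-binding protein), Col1a1, Entpd2 (an ectonucleotidase), Itga6 and Prss8 had 0 peaks in either list, like the 6 genes. None of the 20 genes had a peak in the WT list, where their derived means were 4.78 to 183 normalized counts.

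**Figure D3:**
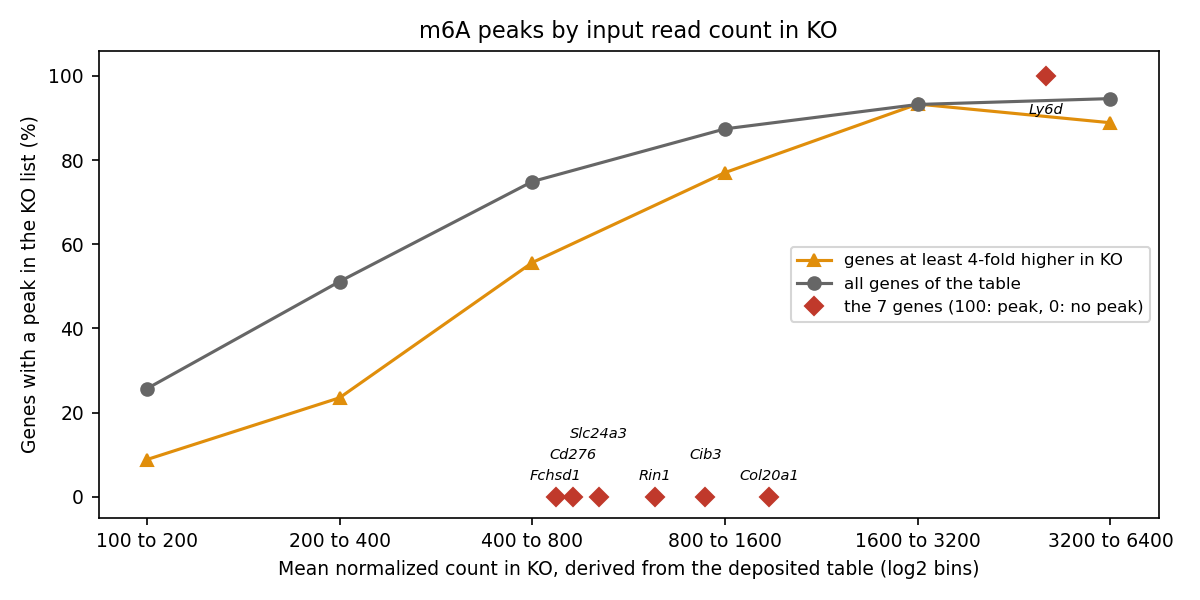
Percentage of genes with at least 1 peak in the KO list by derived KO mean count (log2 bins), for genes at least 4-fold higher in KO (triangles) and all genes (circles), with the 7 genes as diamonds at 100 (peak) or 0 (no peak). The share of all genes rises to 74.9% between 400 and 800 counts and 87.4% between 800 and 1600, where 6 of the 7 genes lie at 0, and Ly6d has a peak at a higher count.

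The relatives of the 7 genes by protein family, the 7 themselves left out, were mostly not called higher. Of 78 tested relatives the authors' deposited table called 22 higher (28.2%) and 10 lower (12.8%), beside 20.4% and 22.2% of all tested genes, and their median log2 change was 0.34 beside 0.05. With libraries scaled to equal totals limma called 49 relatives higher and 2 lower of 75, beside 7825 (60.3%) and 782 (6.02%) of all 12980 genes, and the median of all genes moved to 0.92. In the LY6 and uPAR family 5 of 11 tested genes rose and 1 fell. Plaur, the urokinase receptor, had 249 and 217 normalized counts in the KO libraries, against 24.8 and 14.8 in the WT libraries, a log2 change of 3.54 ± 0.41 in the authors' deposited table (SE, adjusted p = 3.53e-16). Ly6e, a LY6 protein of many tissues, rose by 1.64 ± 0.20 in the authors' deposited table (SE, adjusted p = 1.2e-14). Lynx1, a modulator of nicotinic receptors, rose by 3.38 ± 0.60 in the authors' deposited table (SE, adjusted p = 1.38e-07). Cd59a, a complement inhibitor, fell by 0.66 in the authors' deposited table, and with libraries scaled to equal totals its sign turned to 0.16.

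No exchanger related to Slc24a3 was called higher. Of 3 tested relatives 0 rose and 1 fell, with 0 at an unadjusted p under 0.05 and 0 by limma among the rises. Slc8b1, the mitochondrial exchanger, had 294 and 384 normalized counts in the KO libraries, against 1203 and 857 in the WT libraries, and its log2 change in the authors' deposited table was -1.60 ± 0.25 (SE, adjusted p = 9.74e-10). The list of B7 and CD28 relatives of Cd276 also held the TREM receptors Trem2 and Treml2. Of its 9 tested genes, these included, 0 rose and 0 fell. The count was 0 in both directions also at an unadjusted p under 0.05 and by limma. In limma 4 of the 9 were higher and 0 lower with libraries scaled to equal totals, beside 60.3% and 6.02% of all 12980 genes. By limma 1 of the 9 was higher without WT A and 2 without WT B, beside 3684 and 3673 of all genes. Of the 11 tested relatives of Cib3, 2 rose and 3 fell, beside 20.4% and 22.2% of all tested genes. Tesc, a calcineurin-like calcium protein, rose by 3.77 ± 0.92 in the authors' deposited table (SE, adjusted p = 0.000203), and Cib2, also a partner of TMC channels in hair cells, was lower with a log2 change of -1.50 ± 0.62 in the authors' deposited table (SE, adjusted p = 0.0394). With libraries scaled to equal totals Cib2 was at -0.63 and not called. Limma then called 6 of 10 relatives of Cib3 higher and 1 lower, beside the same 60.3% and 6.02% of all genes.

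Relatives and partners of RIN1 were counted next. Of 20 tested genes of the RIN family and RAB5 activation 7 rose and 3 fell, beside 20.4% and 22.2% of all tested genes. By limma with equal totals 16 of 20 were higher and 0 lower, beside 60.3% and 6.02% of all 12980 genes. Abl2, a kinase that RIN1 activates, had 474 and 620 normalized counts in the KO libraries, against 147 and 174 in the WT libraries, a log2 change of 1.77 ± 0.27 in the authors' deposited table (SE, adjusted p = 2.96e-10). Als2cl and Rin3, both tied to RAB5 exchange, rose by 1.40 ± 0.20 and 1.38 ± 0.24 in the authors' deposited table (SE, adjusted p = 2.92e-11 and 5.82e-08). The 3 that fell were the RAB5 proteins themselves, Rab5a, Rab5b and Rab5c, with log2 changes of -0.79, -1.19 and -0.61 in the authors' deposited table. With libraries scaled to equal totals Rab5a and Rab5c turned to 0.03 and 0.20, while Rab5b kept its sign at -0.37 and was no longer called.

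Of 20 tested F-BAR relatives of Fchsd1, 6 rose and 2 fell, beside 20.4% and 22.2% of all tested genes. Fchsd2, its nearest relative, had 120 and 110.5 normalized counts in the KO libraries, against 265 and 285 in the WT libraries, with a log2 change of -1.25 ± 0.29 in the authors' deposited table (SE, adjusted p = 7.62e-05). With libraries scaled to equal totals it was at -0.43 and not called. Limma then called 13 of 19 F-BAR relatives higher and 0 lower, beside 60.3% and 6.02% of all 12980 genes. Trip10, a CDC42 effector, rose by 2.26 ± 0.29 in the authors' deposited table (SE, adjusted p = 6.48e-14). Of the 4 tested FACIT relatives of Col20a1, 2 rose and 0 fell, with 4 rises and 0 falls by limma. Col16a1 had 307 and 202 normalized counts in the KO libraries, against 48.5 and 33.7 in the WT libraries, and rose by 2.62 ± 0.38 in the authors' deposited table (SE, adjusted p = 5.54e-11).

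Markers of the cell types in which the 7 genes are usually found, and of other liver cell types, were next set beside them. Over all these lists together, 39 of 120 tested markers (32.5%) were called higher and 18 (15%) lower in the authors' deposited table. The shares of all tested genes were 20.4% and 22.2%. Bile duct, stellate cell and proliferation markers, given below, made up most of the higher ones. By limma with libraries scaled to equal totals 71 were higher and 1 lower of 102, beside 7825 and 782 of 12980 genes. That count leaves out the 15 hepatocyte markers, which were above the limit of recovery and made up 14 of the 18 lower ones. B lymphocyte markers, relevant to Ly6d, gave 0 rises and 0 falls among 4 tested genes, also at an unadjusted p under 0.05 and by limma. Their summed level was 39.1 to 51.0 normalized counts in the KO libraries, against 44.4 to 86.3 in the WT libraries. Of the stratified epithelium markers, 12 of 20 genes, Krt14 and Trp63 among them, were not in the table, and 3 of 7 tested genes rose. The list summed to 468 to 487 normalized counts in the KO libraries, against 45.3 to 57.9 in the WT libraries. Most of the KO sums came from Sprr1a, a cornified envelope protein. It had 363 and 382 normalized counts in the KO libraries, against 3.23 and 10.8 in the WT libraries. Krt10 went the other way, with 10.4 and 13.6 normalized counts in the KO libraries, against 17.3 and 31.0 in the WT libraries, and was not called. Dsg1a and Krt17 had 0 reads in both WT libraries and at most 16.1 normalized counts in a KO library. Neuron markers, relevant to Rin1 and Slc24a3, gave 0 rises and 0 falls among 6 tested genes, also at an unadjusted p under 0.05 and by limma, and summed to 149 to 156 normalized counts in the KO libraries, against 187 to 201 in the WT libraries. In limma 1 of these 6 was higher with equal totals, 1 was higher without WT A and 1 lower without WT B.

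Smooth muscle markers, relevant to Slc24a3, rose in 4 of 8 tested genes and fell in 0, beside 20.4% and 22.2% of all tested genes. By limma with equal totals 6 of 8 were higher and 0 lower, beside 60.3% and 6.02% of all 12980 genes. The smooth muscle list summed to 1713 to 1988 normalized counts in the KO libraries, against 673 to 823 in the WT libraries. Acta2, smooth muscle actin and a marker of activated stellate cells too, had 261 and 195 normalized counts in the KO libraries, against 19.4 and 16.2 in the WT libraries. Stellate cell and fibroblast markers rose in 9 of 15 tested genes, with 0 falls, beside the same 20.4% and 22.2% of all tested genes. By limma with equal totals 12 of 14 were higher and 0 lower, beside the same 60.3% and 6.02%. The 14 recovered members of the list summed to 6561 to 9596 normalized counts in the KO libraries, against 1873 to 2493 in the WT libraries. Col1a1 had 1516 and 908 normalized counts in the KO libraries, against 80.9 and 61.9 in the WT libraries, with a log2 change of 4.08 in the authors' deposited table. Of the inner ear and retina markers, relevant to Cib3, 2 were tested. Myo7a, a hair cell myosin, rose by 1.36 ± 0.24 and Gnat1, rod transducin, had a log2 change of -3.49 ± 0.24 in the authors' deposited table (SE, adjusted p = 8.84e-08 and 4.06e-45), while Tmc1, whose channel CIB3 binds, had 0 reads in WT and was not tested.

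Markers of other liver cell types also differed between the genotypes. Bile duct and progenitor markers rose in 13 of 15 tested genes and fell in 0, beside 20.4% and 22.2% of all tested genes. By limma with equal totals 14 of 14 were higher and 0 lower, beside 60.3% and 6.02% of all 12980 genes. The median log2 change of these markers, from the authors' deposited table, was 3.54. Their 14 recovered members summed to 2071 to 2538 normalized counts in the KO libraries, against 447 to 487 in the WT libraries. Krt19, a keratin of bile duct cells, had 163 and 210 normalized counts in the KO libraries, against 16.2 and 14.8 in the WT libraries. Proliferation markers rose in 7 of 12 tested genes and fell in 0, with a median change of 4.15 (log2, authors' deposited table). By limma with equal totals 12 of 12 were higher and 0 lower, beside the same 60.3% and 6.02% of all genes. The proliferation list summed to 602 to 990 normalized counts in the KO libraries, against 135 to 139 in the WT libraries. Mki67 had 352 and 169 normalized counts in the KO libraries, against 7.55 and 8.08 in the WT libraries. Hepatocyte markers fell in 14 of 15 tested genes, beside 22.2% of all tested genes, and Apoa1 was the one that rose. Their median change was -2.13 (log2, authors' deposited table). With the 0.82 of equal totals added, 12 of these 15 markers were below 0 and their median was -1.31. Their derived means summed to 621249 normalized counts in KO and 1803730 in WT.

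Macrophage markers rose in 1 of 15 tested genes, Cd68, and fell in 2, Clec4f and Vsig4. Their 14 recovered members summed to 6354 to 7243 normalized counts in the KO libraries, against 5441 to 6260 in the WT libraries. Cd68 alone had 2023 and 2665 normalized counts in the KO libraries, against 168 and 207 in the WT libraries. Without Cd68 the sums were not higher in KO. By limma with equal totals 8 of the 14 markers were higher and 0 lower, beside 60.3% and 6.02% of all 12980 genes. Clec4f and Vsig4, at -0.61 and -0.18, were then no longer called. Endothelial markers rose in 0 of 13 tested genes and fell in 1, Clec4g, with 1 rise and 1 fall at an unadjusted p under 0.05 and by limma, and summed to 5025 to 5547 normalized counts in the KO libraries, against 4056 to 5414 in the WT libraries. By limma with equal totals 11 of the 13 were higher and 0 lower, beside the same 60.3% and 6.02% of all genes. Without WT A 4 of the 13 were higher, beside 3684 of 12980 genes. T and NK lymphocyte markers gave 0 rises and 0 falls among 9 tested genes, also at an unadjusted p under 0.05 and by limma, and summed to 51.8 to 70.9 normalized counts in the KO libraries, against 49.8 to 87.3 in the WT libraries. In limma 1 of these 9 was higher with equal totals, and 1 without WT A. In bulk liver more cells of a type and more RNA per cell cannot be told apart, and the part of these cell types in the rise of the 7 genes was not tested. Scaling the libraries to equal totals adds 0.82 to a log2 ratio before any pseudocount, and that shift was added to the values of the hepatocyte markers. In limma, with its pseudocount of 1, genes with few reads moved otherwise, such as Gml to 3.59. The hepatocyte markers Trf and Ahsg then turn to 0.08 and 0.05, Clec4g turns to 0.27, and the other called markers named here keep their sign.

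**Figure D4:**
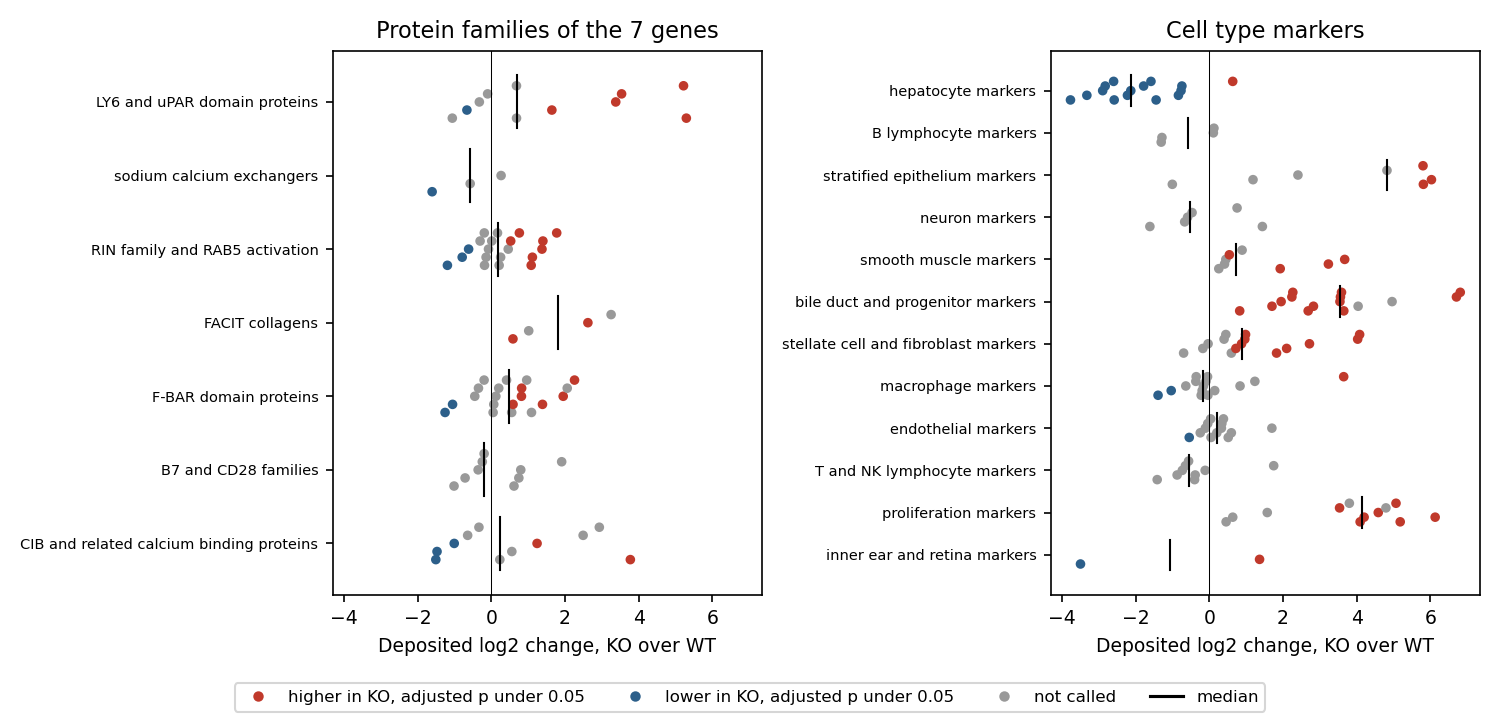
Log2 change, KO over WT, in the authors' deposited table for each tested relative of the 7 genes (left, the 7 genes left out) and each tested cell type marker (right), coloured by call, with a line at each list's median. Bile duct and proliferation markers have medians of 3.54 and 4.15, hepatocyte markers of -2.13, and the B7 and CD28 families have no called gene.

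The genes beside the 7 were counted in the same way. Of the 28 nearest tested genes, 2 on each side of each member, the authors' deposited table called 10 higher (35.7%), 6 lower (21.4%) and 12 neither, beside 20.4% higher and 22.2% lower of all tested genes, with a median log2 change of 0.34 beside 0.05. By limma with equal totals 20 of 27 were higher and 1 lower, beside 60.3% and 6.02% of 12980 genes. Of the 14 immediately adjacent genes 6 were higher, 2 lower and 6 not called. Lynx1, Gml, Gml2 and Rin2 were counted both here and among the relatives, so these counts share genes. On chromosome 15 the LY6 family neighbours of Ly6d rose with it, Lynx1 with 124 and 104 normalized counts in the KO libraries, against 18.3 and 2.69 in the WT libraries. Gml and Gml2, whose annotated spans overlap, had 7.97 and 8.50, and 7.17 and 10.2, normalized counts in the KO libraries, against 0 reads in both WT libraries. Their adjusted p in the authors' deposited table was 0.0358 and 0.0305 (DESeq2). Brms1, a chromatin corepressor subunit that ends 86 bases before Rin1 begins, had 334 and 351 normalized counts in the KO libraries, against 689 and 617 in the WT libraries. Its log2 change of -0.93 ± 0.22 in the authors' deposited table (SE, adjusted p = 0.000155) became -0.11 with libraries scaled to equal totals and was then not called.

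Arfgap1, a coat protein regulator 796 bases from Col20a1, had a log2 change of 0.42 ± 0.23 in the authors' deposited table (SE, adjusted p = 0.13 from DESeq2). Rell2 overlaps Fchsd1 by 1749 bases and had 32.7 and 27.2 normalized counts in the KO libraries, against 1.08 and 1.35 in the WT libraries. The library kit keeps strand, per the labels' protocols, but the sources used here do not give the strand setting of the counting, so reads of Rell2 and Fchsd1 cannot be fully told apart. Loxl1, a collagen crosslinking enzyme before Cd276, rose by 4.52 ± 0.73 in the authors' deposited table (SE, adjusted p = 5.37e-09), while Nptn after it had -0.11 (adjusted p = 0.721). Tpm4, a tropomyosin near Cib3, rose by 2.37 ± 0.24 in the authors' deposited table (SE, adjusted p = 7.46e-22), and Rab8a between them had -0.38 (adjusted p = 0.101). Beside Slc24a3, Rin2 rose by 1.08 ± 0.37 in the authors' deposited table (SE, adjusted p = 0.0102), whereas Dtd1 and Sec23b had -0.77 and -0.67 (adjusted p = 0.0243 and 0.0065) and turned to 0.05 and 0.17 with libraries scaled to equal totals. Of the 28 neighbours 13 (46.4%) had a peak in the KO list and 8 (28.6%) in the WT list, beside 41.1% and 21.0% of all 14257 tested genes.

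**Figure D5:**
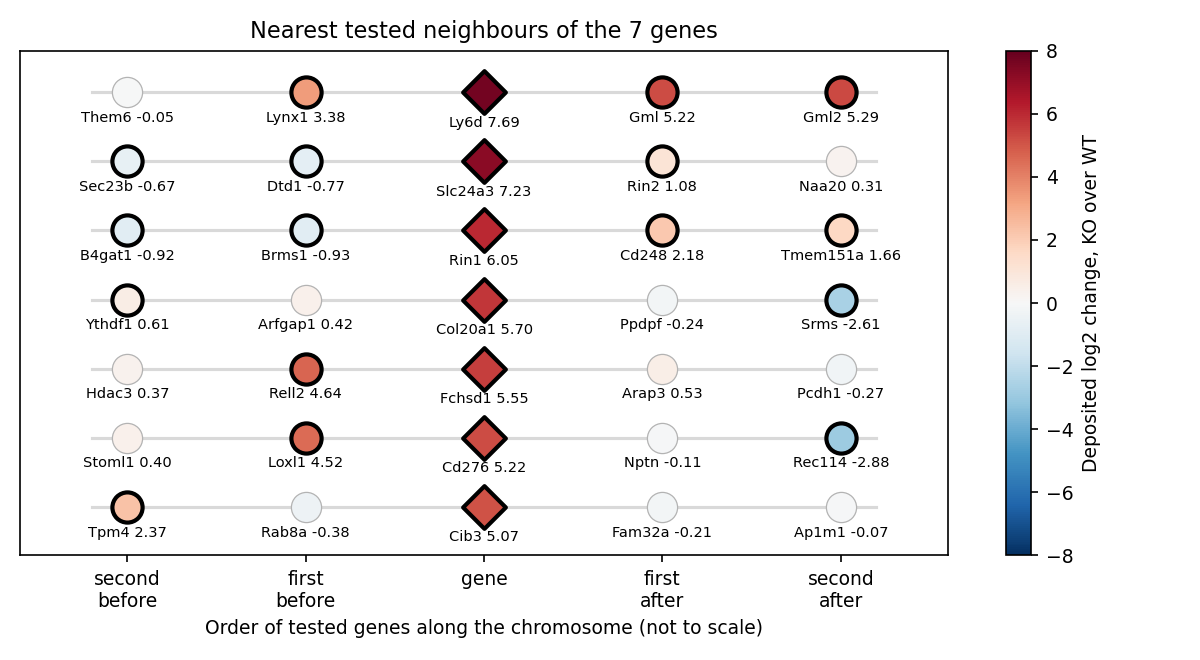
Log2 change, KO over WT, in the authors' deposited table of each of the 7 genes (diamonds) and its 2 nearest tested genes on each side (circles), ordered along the chromosome and not to scale, with a dark outline where the adjusted p was under 0.05. The genes around Ly6d are mostly raised, with Lynx1 at 3.38, Gml at 5.22 and Gml2 at 5.29, while Brms1 beside Rin1 is at -0.93 (-0.11 in limma with equal totals).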

How the data were processed

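Input libraries (2 KO, 2 WT) and m6A-IP libraries (2 KO, 2 WT) of tunicamycin-treated liver were analysed from 1 table of the authors' own comparison and 1 peak list per genotype. HISAT2 2.1.0, DESeq2 1.18.1 and mm10 are named per the submitters' processing notes; the counter, annotation and peak caller are not named in the sources used here. In the deposited table the mean is a signal, counts divided by size factors and averaged over 4 libraries. The deposited change and its SE are log2 values, and the Wald statistic is the authors' score. The p-values, raw and adjusted, are also the authors'. The enrichment in the deposited lists was read as the authors' ratio of IP over input RNA, and a value between 0 and 1 as the authors' p-value. The table held 14257 genes with an adjusted p, of 16133.

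The 7 genes and every gene list were chosen with earlier results of these data known. Named genes are the 7, neighbours of theirs, those next to the smallest rise above the median mean and Mettl14. Some of the called list members with the smallest p were also named, not always the one with the smallest p of its list. Cib2, Rab5a, Rab5c, Dhrs9, Col3a1, Tnfrsf12a, Anxa2, Entpd2 and a few further list members were named after their values were seen. The table gives a mean per gene and no counts, so whole read counts per library were searched for among numbers that give each deposited mean to its last digits, guided above a mean of 100 by the authors' fold change, with a limit at a mean of 2000. Counts of 14856 genes (92.1%) were found, all 7 members with 1 solution each. Of these, 6931 were found without the fold change. For the 1333 of them above a mean of 50 the log2 ratio differed from the deposited one by a median of 0.00434. With the guide such agreement is no independent check. In libraries simulated mostly from the means of genes already solved, 1497 of 1502 genes were found, all correctly. That rate does not cover genes like the 260 with more than 1 solution. The simulated size factors were not in simple whole-number ratios, and the method needs size factors that are not so related. Size factors were 1.25 and 1.18 (KO) and 0.927 and 0.743 (WT). Genotype means were derived from the deposited mean and change. The authors' adjusted p under 0.05 (DESeq2, Benjamini-Hochberg) defined a call. An alternative was limma 3.58.1 with a trend on log2 of normalized counts plus 1. In simulated data on 12980 genes limma called 33% of genes changed by 1 (log2), 100% of those changed by 2 and 0.0313% of unchanged genes. That simulation changed few genes, none of low mean, at a fixed spread, so its rates need not hold for these data. Intervals on reads are exact Poisson, 95%, and cover counting error only. The depth of the IP libraries is unknown. Gene positions and sequences are from RefSeq (GRCm38.p6).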

Additional observations from a re-analysis of the deposited data

How the results depend on the processing

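The sign of the change of the 7 genes was kept under every alternative run. With libraries scaled to equal totals the log2 change was 8.50 for Ly6d, 8.07 for Slc24a3, 6.85 for Rin1, 6.54 for Col20a1, 6.37 for Fchsd1 and 5.87 for Cib3, since that scaling adds 0.82 to their log2 ratios. With a pseudocount of 10 it was 7.02 for Ly6d, 5.60 for Slc24a3, 5.25 for Rin1 and 4.74 for Fchsd1. Leaving out 1 library in turn gave 7.50 to 7.84 for Ly6d, 6.90 to 7.53 for Slc24a3, 5.76 to 6.35 for Rin1, 5.41 to 6.04 for Col20a1, 5.38 to 5.69 for Fchsd1, 4.68 to 5.92 for Cd276 and 4.55 to 5.42 for Cib3. The 5.92 of Cd276 was without WT B, whose count of it is 2.37-fold that of WT A.

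Counts of calls moved more. Over all tested genes the authors' 2904 higher calls became 1356 with genes above the median mean only and 7825 in limma with equal totals, and the 3162 lower calls became 1801 with at least a 2-fold change and 782 in limma with equal totals. That scaling moved the median log2 change of all genes to 0.92, against 0.12 in limma with the size factors. The 22 higher relatives became 14 at an adjusted p under 0.01, 10 above the median mean and 49 with equal totals, and the 10 lower ones 6 above the median mean and 2 with equal totals. The 39 higher markers became 14 above the median mean and 71 with equal totals, and the 18 lower ones 3 in limma and 1 with equal totals, where the 15 hepatocyte markers, above the limit of recovery, are missing. The 10 higher neighbours became 4 at an adjusted p under 0.01, 2 above the median mean and 20 with equal totals, and the 6 lower ones 2 with at least a 2-fold change, 3 above the median mean and 1 with equal totals.

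Leaving out 1 library in limma gave 0 to 3684 higher and 0 to 2868 lower calls over all genes, 0 to 28 and 0 to 10 among relatives, 0 to 52 and 0 to 7 among markers, and 0 to 12 and 0 to 7 among neighbours. Each 0 came without KO A or without KO B, when the lone KO library is assumed to vary like the WT pair; at an unadjusted p under 0.05 limma then gave 2323 and 2103 calls without KO A, and 2486 and 2236 without KO B, higher and lower over all genes. No paired analysis was possible because the recovered libraries carry no replicate number. Peaks shared between genotypes could not be compared, since none of the 7 genes had a WT peak. The range of the 6 genes without a peak, chosen after the data were seen, gave 83.6% of genes with a KO peak, against 86.6%. Reads of 3 to 28 per WT library limit the ratios of the 7 genes.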
